A study of Mus musculus with 6 samples.

Results

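The collagen gene family comprised every gene on the array whose symbol has the form Col, a type number, the letter a and a chain number. 42 such genes had at least 1 probe set (a group of short probes for 1 transcript) that names no other gene, out of 18194 genes in all. Where a gene had several, the one with the highest mean signal stood for it. Expression was measured in 6 tumours grown from KPC1199, a line of pancreatic ductal adenocarcinoma cells from mice, each placed under the skin of the back and hybridised to its own Affymetrix array. 3 tumours came from lactating mice, which received the cells when pregnant or at the start of nursing, and 3 from control mice of the same age. All tumours were taken 20 days after injection. Tumours are described as biological replicates. The labels give no strain and do not say which mice of the lactation group were pregnant at injection. The tumour cells and the host are both mouse, so a signal cannot be assigned to tumour cells or to host cells.

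Collagens are proteins of 3 chains wound into a triple helix, and each gene encodes 1 chain. Fibrillar collagens form the rope-like fibres of connective tissue, and network collagens form sheets such as the basement membrane under epithelia and around vessels. Beaded type VI collagen forms fine filaments around cells, transmembrane collagens sit in the cell surface, and fibril-associated collagens decorate fibres and link them to other matrix. Pancreatic ductal tumours are known for a dense collagen stroma laid down mostly by fibroblasts, with some basement membrane chains made by the carcinoma cells themselves.

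The 6 arrays had median signals from 99.3 to 111 and equal trimmed means of 500.0, so they had been scaled to a common level before deposit. Signals are MAS5 values on a linear scale, and a difference is the mean of log2(signal + 16) in lactation minus that in controls. A gene was tested if its signal reached the array's own median on 3 or more of 6 arrays. 23 of the 42 collagens passed and 19 did not. Of the 23, 22 lay above the median on all 6 arrays, and none passed through 1 group alone. Since probe sets differ in how brightly they report a transcript, signals are compared between tumours and never between genes. The number of arrays limits the precision.

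No collagen gene differed between the groups in limma after Benjamini-Hochberg adjustment over 11623 genes, where 0 genes passed (0% of all genes tested). The adjusted p was 1 for each of the 23. Without adjustment 1 of the 23, the transmembrane collagen Col23a1, had a p under 0.05, on the lower side, where 0.766% of all genes were lower at that level and 1.51% were higher. The groups did not overlap for the same gene alone, beside 3.19% of all genes lower and 3.71% higher without overlap. 20 of the 23 had a negative difference and 3 a positive one, with a median of -0.079. Over all genes tested 48.3% were positive and the median was -0.0052. With array weights, which count variable arrays less, the 23 split into 11 positive and 12 negative. The signs depended on single tumours. Control replicate 3 had the highest signal of the 6 in 19 of the 23 collagens, against 22.1% of all genes tested, and without it 17 of the 23 differences were positive, with a median of 0.17. Without lactation replicate 1 the 23 split into 11 positive and 12 negative, with a median of -0.014, and without any 1 of the other 4 tumours at least 19 were negative. In the fit without control replicate 3 again none passed adjustment in limma, and all genes then had a median of 0.0014. Fewer cells of a type and less RNA per cell cannot be told apart in such bulk samples.

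**Figure D1:**
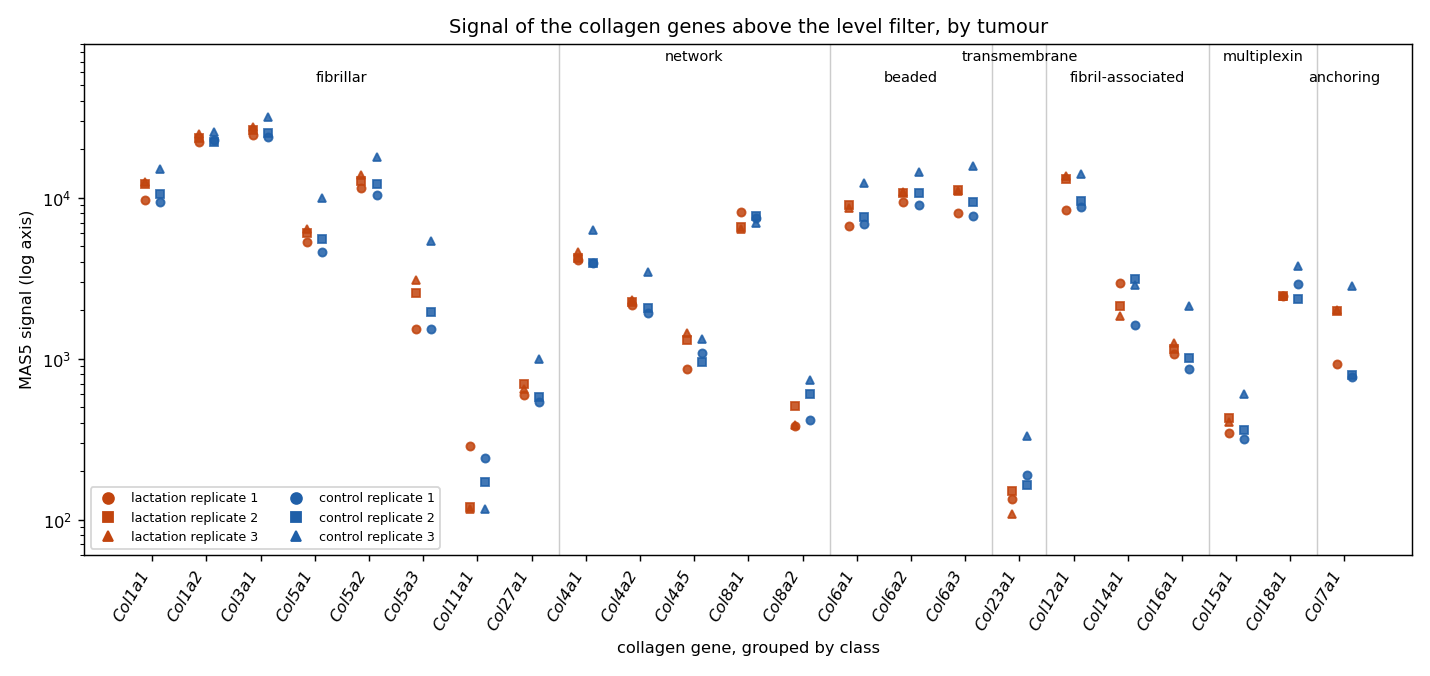
MAS5 signal on a log axis for the 23 collagen genes above the level filter, grouped by class, with 1 point for each of 3 lactation and 3 control tumours. The point of control replicate 3 is the highest of 6 for 19 genes, and the groups separate only for Col23a1.

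Among the major fibrillar genes, Col1a1, the alpha 1 chain of type I collagen, measured 9674, 12092 and 12494 in the lactation tumours and 9431, 10468 and 15034.5 in the controls. The extremes were both control tumours, and the lactation values lay between them. The difference was -0.0075 with a standard error of 0.18. Its partner chain Col1a2 measured 22126, 23315 and 24699 against 22924, 22032 and 25550, a difference of -0.0061 (standard error 0.075). The tumours spanned only a 1.16-fold range for this probe set. Col3a1, the single chain of type III collagen found in reticular fibres, measured 24446, 26445 and 27572 against 23786, 25074 and 31717. Its difference was -0.029 with a standard error of 0.11. The same order held for all 3 genes at the top, where control replicate 3 was highest and lactation replicate 3 came next.

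Type V chains, which sit in the core of type I fibres and set their diameter, spread more widely. Col5a1 measured 5285, 6062 and 6374 against 4623, 5534 and 9926, and Col5a2 11420, 12762 and 13832 against 10384, 12071 and 17959. In each case control replicate 1 was the lowest and control replicate 3 the highest of the 6. Col5a3 had the largest difference among tested fibrillar genes, -0.14 with a standard error of 0.48, from 1526, 2544 and 3082 against 1521, 1956 and 5379. Without control replicate 3 the differences were 0.22 for Col5a1, 0.17 for Col5a2 and 0.40 for Col5a3. Col27a1, a fibrillar chain known from cartilage, measured 598, 693 and 643 against 535, 577 and 991.

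Col11a1, a fibrillar chain of cartilage and of activated tumour fibroblasts, did not share this order. It measured 287, 120 and 117 in lactation and 243, 172 and 117 in controls. Replicate 1 was the highest in each group, and control replicate 3 was among the lowest. Its second probe set gave 323, 109 and 101 against 309, 158 and 91.5. The difference was -0.079 with a standard error of 0.39, so the spread within each group exceeded the difference between them.

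Upstream sequences are shown for 2 fibrillar genes and 1 beaded gene that shared their highest tumour, control replicate 3 (Col1a2, Col3a1 and Col6a1), and for the network gene Col8a1, which did not. Each is the 250 bases before the annotated transcription start, 5′ to 3′ on the gene's strand, from RefSeq on GRCm38.p6. Capitals mark matches, on either strand, to CCAAT (a site of NF-Y), the TATAAA box, GGGCGG (a site of Sp1), CAGAC (part of a SMAD site) or TGANTCA (a site of AP-1).
Col1a2, chr6:4505368-4505617, plus strand: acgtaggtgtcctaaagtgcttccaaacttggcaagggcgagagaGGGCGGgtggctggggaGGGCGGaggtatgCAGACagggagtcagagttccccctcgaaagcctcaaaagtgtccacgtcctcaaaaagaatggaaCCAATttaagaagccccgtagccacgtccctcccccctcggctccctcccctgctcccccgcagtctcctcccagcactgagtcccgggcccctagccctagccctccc
Col3a1, chr1:45311288-45311537, plus strand: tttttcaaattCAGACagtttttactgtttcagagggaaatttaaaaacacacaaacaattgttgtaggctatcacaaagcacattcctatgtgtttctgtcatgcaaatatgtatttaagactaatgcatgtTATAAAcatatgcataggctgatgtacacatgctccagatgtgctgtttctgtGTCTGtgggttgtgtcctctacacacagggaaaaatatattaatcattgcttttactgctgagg
Col6a1, chr10:76726045-76726294, minus strand: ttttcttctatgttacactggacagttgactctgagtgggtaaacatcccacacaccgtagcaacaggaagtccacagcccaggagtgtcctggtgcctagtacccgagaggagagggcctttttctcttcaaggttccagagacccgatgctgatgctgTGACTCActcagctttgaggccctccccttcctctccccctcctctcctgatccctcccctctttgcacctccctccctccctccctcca
Col8a1, chr16:57754738-57754987, minus strand: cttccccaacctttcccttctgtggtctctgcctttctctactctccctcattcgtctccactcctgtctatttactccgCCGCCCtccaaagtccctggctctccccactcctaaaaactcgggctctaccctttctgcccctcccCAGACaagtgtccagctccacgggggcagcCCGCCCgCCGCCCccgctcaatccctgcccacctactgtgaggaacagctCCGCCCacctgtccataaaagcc

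The Col1a2 window held 2 matches to GGGCGG, 1 to CAGAC and 1 to CCAAT, the last beginning 109 bases before the start. The Col3a1 window, with a G and C content of 35.2%, held TATAAA 117 bases before the start and CAGAC on each strand. The Col6a1 window held 1 match, to TGANTCA at 90 bases before the start. The Col8a1 window held 4 matches to GGGCGG, all on the reverse strand, and 1 to CAGAC. No 1 of these motifs was matched in all 3 printed genes that were highest in the same tumour. These are 3 of the 19 collagens highest in control replicate 3, printed after the values were seen, so they do not speak for the others. Windows were at hand for 33 of the 42 collagens, 36 windows in all. GGGCGG was in 58.3% of them and in 32.7% of all 32851 windows of the same length. CCAAT was in 36.1% against 33.8%, TATAAA in 13.9% against 12.4%, CAGAC in 41.7% against 42.2% and TGANTCA in 2.78% against 6.75%. A match is a description of the letters and not a binding site.

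In the network class, Col4a1 and Col4a2 encode the chains of the common basement membrane trimer and lie next to each other on chromosome 8. Col4a1 measured 4118, 4241 and 4560 in lactation and 3938, 3927 and 6286 in controls. Col4a2 measured 2141.5, 2261 and 2327 against 1917, 2064 and 3458. Lactation tumours lay within a narrow range for each gene, above control replicates 1 and 2 and below control replicate 3. The differences were -0.096 (standard error 0.18) and -0.093 (0.21). Col4a5, an alternative basement membrane chain, was 1 of the 3 tested collagens with a positive difference, 0.083 with a standard error of 0.21, from 857, 1313 and 1441 against 1084, 956 and 1314. Lactation replicate 3 was its highest tumour, and its second probe set had a difference of -0.12.

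Type VIII collagen forms short-chain networks beneath endothelium and in the vessel wall. Col8a1 measured 8095, 6601 and 6371 in lactation and 7467, 7658 and 6997 in controls. Lactation replicate 1 was its highest tumour, and control replicate 3 was the lowest of the controls. Its other probe sets were highest in control replicate 2, at 3730 and 853 against 3699 and 813 in lactation replicate 1. In the dimmest of them control replicate 1 was the lowest control. The tumours spanned a 1.27-fold range, and the difference was -0.078 with a standard error of 0.10. The other chain, Col8a2, had the largest difference among tested members of the class, -0.41 with a standard error of 0.22. It measured 382, 507 and 387 against 413, 599 and 733, and the groups overlapped. The difference was negative without each array in turn, from -0.63 to -0.23.

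The beaded class is type VI collagen. Col6a1 measured 6681, 8979 and 8627 in lactation and 6867, 7599 and 12236 in controls. Col6a2, its neighbour on chromosome 10, measured 9388, 10736 and 10838 against 8939, 10709 and 14340. Col6a3, the chain that carries the fragment endotrophin, measured 8010, 11148 and 11008 against 7651, 9343 and 15685. Replicate 1 was the lowest tumour of each group for all 3 genes and control replicate 3 the highest of all. Their differences were -0.10, -0.11 and -0.063, with standard errors of 0.22, 0.17 and 0.26. Without control replicate 3 they were 0.15, 0.074 and 0.23.

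Among fibril-associated collagens, Col12a1, a linker on type I fibres under tension, measured 8386, 13103 and 13557 in lactation and 8707, 9538 and 14090 in controls. The tumours formed a high set of lactation replicates 2 and 3 with control replicate 3 and a low set of the other 3. The difference was 0.12 with a standard error of 0.24. Col14a1, which binds to the surface of fibrils, went by another order, at 2947, 2108 and 1838 against 1623, 3129 and 2880. Control replicate 2 was its highest tumour and control replicate 1 its lowest. Its second probe set was highest in control replicate 3, at 715 against 660 in control replicate 2. Col16a1, a minor linker collagen, measured 1064, 1142 and 1258 against 863, 1002 and 2117, and its difference was -0.087, or 0.30 without control replicate 3.

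The multiplexins carry heparan sulphate or chondroitin sulphate and lie in basement membranes. Col18a1, the source of endostatin, measured 2443, 2441 and 2450 in lactation and 2892, 2329 and 3743 in controls. The 3 lactation tumours were nearly equal, with a mean of 2445 ± 4.64 (SD, n = 3), and lay within the range of the controls at 2988 ± 712. The difference was -0.26 with a standard error of 0.16, which became -0.086 when control replicate 3 was left out and -0.43 when control replicate 2 was. Col15a1 measured 344, 428 and 403 against 318, 362 and 605, with a difference of -0.076.

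Col7a1, which forms the anchoring fibrils that hold epithelium to the matrix, varied the most of all tested collagens, over a 3.67-fold range. It measured 919, 1965 and 1996 in lactation and 764, 788 and 2805 in controls. As with Col12a1, lactation replicates 2 and 3 and control replicate 3 were high and the other 3 tumours low. The difference was 0.36 with a standard error of 0.54, and it was 0.97 without control replicate 3. In that fit Col7a1 and Col16a1 were the 2 collagens of 23 on the higher side at an unadjusted p under 0.05, where 1.27% of all genes were, and limma's adjusted p was 1 for all 23. Leaving out other controls gave calls on the lower side at the same level, Col8a2 and Col23a1 without control replicate 1 (2.65% of all genes) and Col18a1 and Col23a1 without control replicate 2 (0.688%), while leaving out any lactation tumour gave none.

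In the transmembrane class only Col23a1 was above the level filter. It measured 134, 150 and 108 in lactation and 189, 164 and 331 in controls. All lactation tumours were below all controls, and the value of lactation replicate 3 lay under its array's median. The difference was -0.69 with a standard error of 0.28. Limma's unadjusted p was 0.0417 and its adjusted p was 1, and a two-sided exact permutation test gave 0.1, which is the lowest value 3 against 3 tumours can give. The unadjusted p was above 0.05 with array weights, with the mean of probe sets and with the replicate number as a block. Without control replicate 3 the difference was -0.40. A second probe set gave 151, 123 and 86.1 against 89.9, 145 and 219, which overlap, with a difference of -0.25. The other, dimmer one gave 57.2, 97.9 and 49.9 against 96.2, 78.8 and 230, which also overlap, with a difference of -0.75. Col17a1, the hemidesmosome collagen of basal epithelial cells, was below the filter with signals of 20.3, 69.6 and 104 in lactation and 31.7, 6.5 and 47.8 in controls. Its groups overlapped, and the difference of 0.81 ranged from 0.38 to 1.31 when an array was left out.

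**Figure D2:**
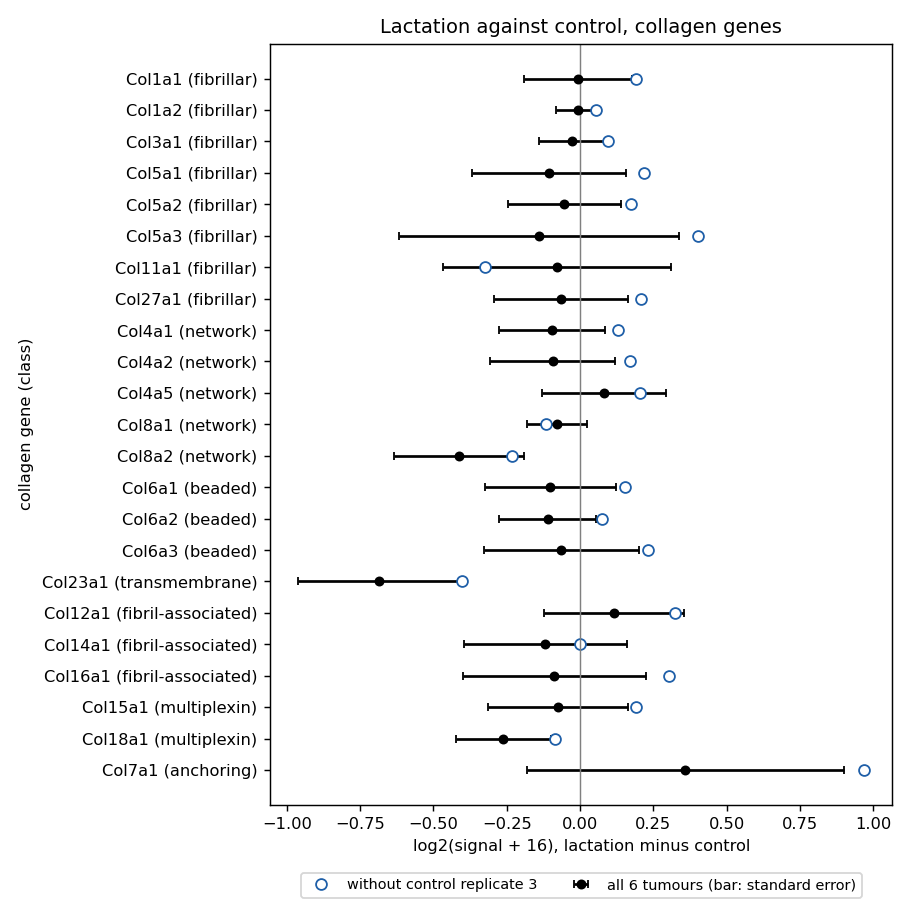
Difference in mean log2(signal + 16), lactation minus control, for each of the 23 tested collagens, with black points and standard error bars for all 6 tumours and open points for the fit without control replicate 3. Most black points lie just under 0, with a median of -0.079, and most open points lie above 0, with a median of 0.17.

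Compared by class over all measured members, filter aside, median differences were -0.065 for 11 fibrillar genes, -0.078 for 9 network genes, -0.11 for 5 beaded genes and -0.17 for the 2 multiplexins. They were 0.19 for 4 transmembrane genes and 0.088 for 9 fibril-associated genes, where most members were dim. Over members above the filter these 2 had the other sign, -0.69 for transmembrane (Col23a1 alone) and -0.087 for 3 fibril-associated genes. The median over all 42 was -0.071, and over all 18194 genes it was -0.0021. Without control replicate 3 the medians were 0.19 for fibrillar, 0.17 for network, 0.074 for beaded, 0.053 for multiplexin and 0.17 for fibril-associated genes. For transmembrane genes it was 0.083. The level of the fibrillar class on each array, as the mean log2 value of its 8 tested genes relative to each gene's own mean, was -0.11, -0.025 and 0.040 in lactation and -0.20, -0.12 and 0.41 in controls. On the same scale the network class gave -0.16, 0.0058 and -0.025 against -0.14, -0.043 and 0.36. The beaded class gave -0.28, 0.083 and 0.062 against -0.31, -0.083 and 0.54. In these 3 classes control replicate 3 stood further above the next tumour than the other 5 tumours lay apart.

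**Figure D3:**
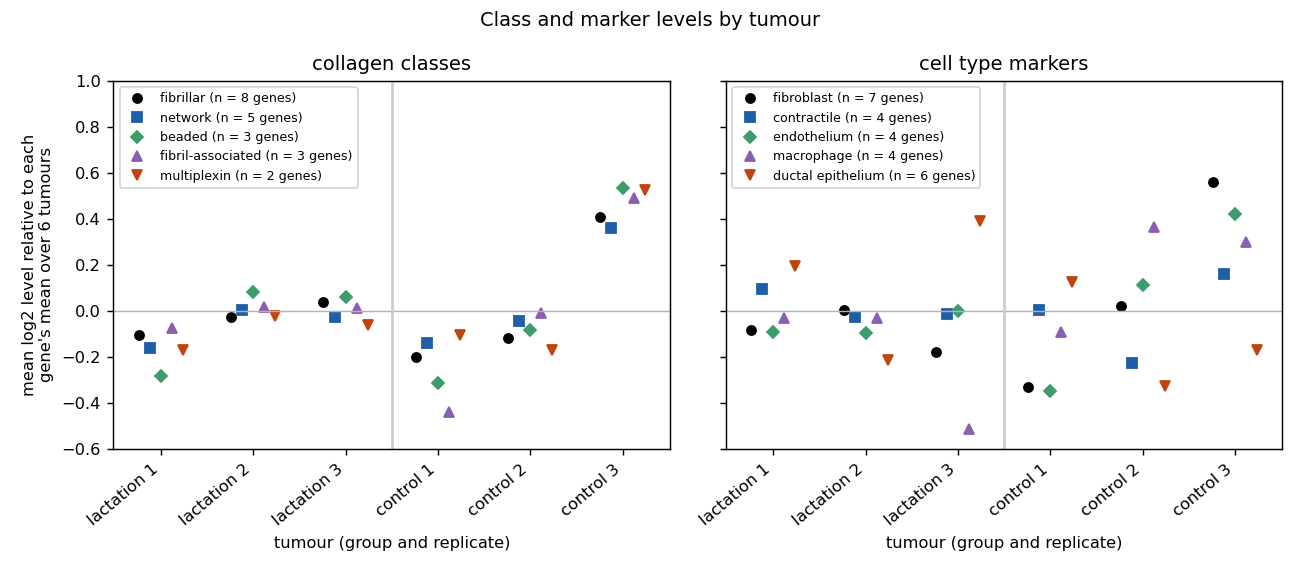
Mean log2 level relative to each gene's own mean over 6 tumours, for 5 collagen classes (left) and 5 lists of cell type markers (right), 1 point for each tumour and list. Control replicate 3 is highest in all 5 collagen classes, from 0.36 to 0.54, and in the fibroblast list, at 0.56, while ductal markers are highest in lactation replicate 3, at 0.39.

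Markers of other cells were set beside this order. Of 7 fibroblast markers, among them the collagen-binding proteoglycans Dcn and Lum, 6 were highest in control replicate 3, and the list's level was -0.083, 0.0057 and -0.18 in lactation and -0.33, 0.023 and 0.56 in controls. The sum of their signals was between 26031 and 29361 for lactation tumours and between 22507 and 43241 for controls. The 4 endothelial markers had levels of -0.091, -0.095 and -5.65e-05 in lactation and of -0.35, 0.11 and 0.42 in controls. The mean levels of both lists were lowest in control replicate 1 and highest in control replicate 3, but Pdgfra and Tek were highest in control replicate 2, and Pdgfra, Pdgfrb, Cdh5 and Tek were lowest in lactation tumours. The 4 contractile markers reached 0.16 in control replicate 3 and 0.097 in lactation replicate 1. Ductal markers, like the other signals here, cannot be assigned to tumour cells or to host cells. Their level was -0.17 in control replicate 3, within their range of -0.33 to 0.39, and all 6 markers had a positive difference. The 4 macrophage markers all had a negative one, with levels of -0.030, -0.032 and -0.51 in lactation and -0.090, 0.37 and 0.30 in controls. Among them Itgam was lower without overlap, as were 3.19% of all genes tested. It measured 208, 218 and 185 in lactation and 224, 404 and 379 in controls. The mean level of the 3 tested keratinocyte markers was highest in lactation replicate 3, at 0.63, with Krt10 highest in lactation replicate 1. Krt5 was higher in lactation without overlap, as were 3.71% of all genes tested. It measured 347, 331 and 837.5 in lactation and 269, 242 and 147 in controls. In limma the unadjusted p was 0.0284 for Krt5 and 0.0272 for Itgam, and neither passed adjustment. That of the 2 tested adipocyte markers was highest in control replicate 2, at 0.80, with Adipoq highest in lactation replicate 2. For skeletal muscle markers the mean level was lowest in control replicate 3, at -1.77, with Myh1 lowest in lactation replicate 3. It was highest in control replicate 2 and lactation replicate 1, at 1.53 and 1.5. Of 5 cartilage markers Comp, which tendon and fibroblasts also make, passed the filter, at 241, 186 and 173 in lactation and 192, 288 and 151 in controls, and so was lowest in control replicate 3. Acan, Matn1, Matn3 and Cnmd were below the filter, as were the keratinocyte markers Krt1 and Lor, the measured Schwann cell marker and all 3 milk gland markers. Of these Csn2 was 333 in lactation replicate 2, but 3.16 and 1.96 in the other lactation tumours, against 26.95, 7.89 and 6.15 in controls. Lalba measured 20.3, 57.0 and 12.4 against 11.1, 7.61 and 6.22. It was higher without overlap, as were 5.19% of all genes below the filter. The groups overlapped for Wap. The part of any of these cells in the collagen signals was not tested.

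**Figure D4:**
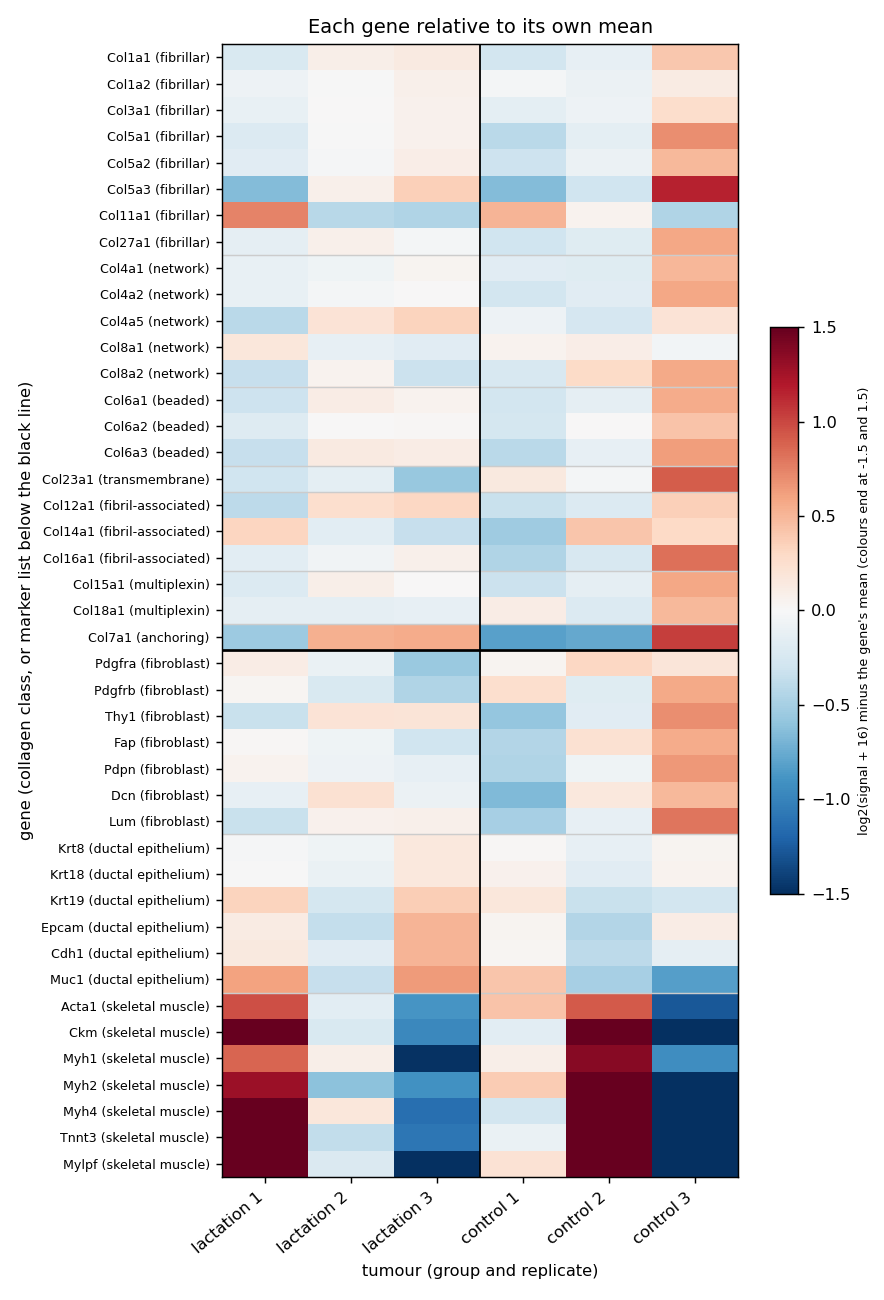
log2(signal + 16) of each gene minus its own mean over the 6 tumours, for 23 collagens (above the black line) and for fibroblast, ductal and skeletal muscle markers (below it). Control replicate 3 is red in most collagens and fibroblast markers and blue in muscle markers, and Col11a1 and Col8a1 depart from that column.

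Control replicate 1 was the lowest tumour for 13 of the 23 collagens, and 14.6% of all genes tested were lowest there. By the probe sets used, 4 collagens were not highest in control replicate 3. They were Col8a1 and Col11a1 (lactation replicate 1), Col4a5 (lactation replicate 3) and Col14a1 (control replicate 2). Other probe sets were highest in control replicate 3 for Col14a1 and in control replicate 2 for Col8a1. Lactation replicate 2 was neither the highest nor the lowest tumour for any of the 23. The spread among control tumours was wider than that among lactation tumours for 20 of the 23 collagens, with Col4a5, Col8a1 and Col11a1 as exceptions. The same count over all genes was not made. Examples were Col4a1, at 4306 ± 228 in lactation and 4717 ± 1359 in controls, and Col5a1, at 5907 ± 561 and 6694 ± 2836 (SD, n = 3). In both genes control replicate 3 stood apart from the other controls, as in Col4a1 at 6286 against 3938 and 3927.

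The size of the spread depended on the probe set. 27 of the 42 collagens had several probe sets, and in 15 of them at least 2 passed the level rule. These shared their highest tumour in 13 of 15 genes and the sign of the difference in 12 of 15. For Col3a1 the brightest probe set, which lies at or above the 99.9th percentile of every array, gave a signal in control replicate 3 that was 1.33 times that in control replicate 1, while the second gave 2.52 times. For Col1a2 the 3 probe sets gave ratios of 1.11, 1.48 and 2.61, and for Col1a1 the 2 gave 1.59 and 2.07. In these genes, and in Col5a1, Col5a2 and Col6a2, the brightest probe set had the smallest ratio. It did not in some others, such as Col14a1, at 1.77 against 1.71 for the second, and Col4a5, at 1.21 against 1.03. The 2 probe sets of Col4a1 gave 1.60 and 1.65. The highest signals on the arrays were 28350 to 32772, so Col1a2 and Col3a1 were measured near the top of the scale. Whether their brightest probe sets were saturated was not tested. The other probe sets had differences of -0.083 for Col1a1, -0.11 for Col3a1, -0.14 for Col5a2, and -0.035 and 0.28 for Col1a2, so the dimmest Col1a2 probe set had the opposite sign to the one used.

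**Figure D5:**
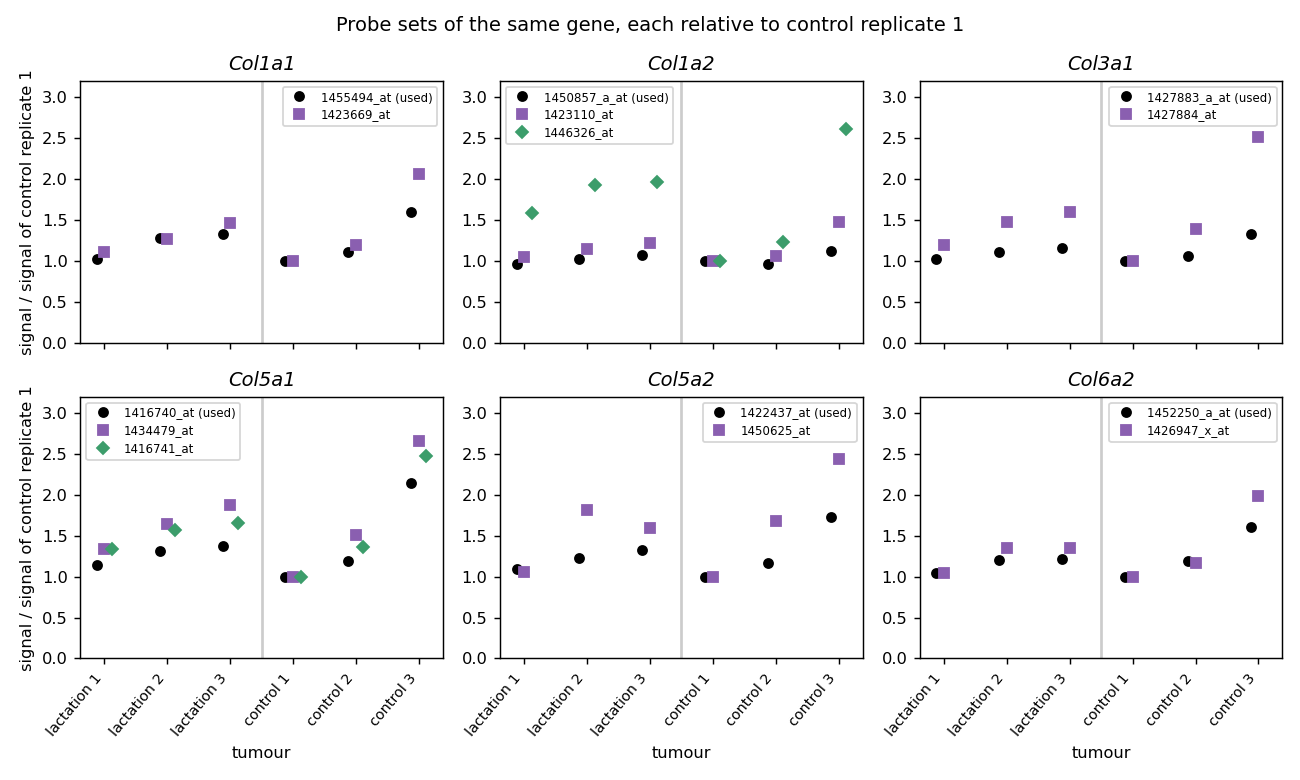
Signal of each probe set divided by its own signal in control replicate 1, for 6 collagens with several probe sets, 1 point for each tumour and probe set, with the brightest (used) probe set in black. Control replicate 3 is the highest tumour in every panel. Its black point lies nearer to 1 than those of the other probe sets, with the lowest values in Col1a2 at 1.11 and Col3a1 at 1.33.

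Genes that make, process and bind collagen were taken as 6 fixed lists of 59 genes, of which 54 were measured and 48 tested. None of the 48 passed in limma after adjustment. 9 had a positive difference and 39 a negative one, with a median of -0.11, which was 0.035 without control replicate 3. Control replicate 3 was the highest tumour for 33 of the 48. The groups did not overlap for 3 of the 48, all lower in lactation, where 3.19% of all genes tested were lower without overlap. They were Ppib, the cyclophilin of the prolyl 3-hydroxylase complex, Pcolce2, an enhancer of propeptide removal, and Loxl4, a lysyl oxidase. Pcolce2 measured 1030, 1030 and 958 in lactation and 1081, 1255 and 1367 in controls. Its difference of -0.29 had a standard error of 0.11, and it was the only 1 of the 48 at an unadjusted p under 0.05 in limma (0.0344, with an adjusted p of 1), where 0.766% of all genes were lower.

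By step, 14 hydroxylation genes were tested, and the largest differences were those of P3h3 at -0.27 and Crtap at -0.23, both of the prolyl 3-hydroxylation machinery. Without control replicate 3 these were -0.0038 and -0.029. In folding and export Creb3l1, a transcription factor that drives secretion of type I collagen, had -0.18, and Tmem38b, an endoplasmic reticulum channel, -0.16. The first was 0.27 without control replicate 3, and the second 0.12 without control replicate 2. Bmp1, the protease that cuts off the carboxyl propeptide, measured 1327, 1398 and 1530 against 1331, 1415 and 2813, again with control replicate 3 alone standing high. The crosslinking enzymes Loxl4 and Loxl3 had -0.24 and -0.18, but averaging the probe sets of Loxl4 gave -0.048, and Loxl3 had -0.020 without control replicate 3. Among fibril-binding proteins the proteoglycans Fmod and Ogn had the largest differences, -0.69 (standard error 0.33) and -0.51 (standard error 0.46). Fmod measured 555, 416 and 396 in lactation and 440, 799 and 1139 in controls, so the groups overlapped. Its difference was -1.06 when control replicate 1 was left out and -0.385 when control replicate 3 was, and averaging its probe sets gave -0.39. Ogn had -0.91 when lactation replicate 1 was left out, -0.24 when control replicate 2 was and -0.030 when lactation replicate 3 was. Among receptors the integrin chain Itga2, part of an epithelial collagen receptor, had 0.33, and the inhibitory leukocyte receptor Lair1 -0.28, which were 0.21 and 0.032 without lactation replicate 3. List medians lay between -0.17 for crosslinking and -0.045 for receptors.

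Several collagen genes are neighbours in the genome, by their order in the RefSeq gene table. Col3a1 and Col5a2 on chromosome 1 had differences of -0.029 and -0.053, Col4a1 and Col4a2 -0.096 and -0.093, and Col6a1 and Col6a2 -0.10 and -0.11. Each of these pairs was highest in control replicate 3, as were 19 of the 23 tested collagens. Col4a6 and Col4a5 on chromosome X had 0.25 and 0.083, the first from a dim signal of 59.5 to 110. Col4a3 and Col4a4 on chromosome 1, chains of kidney basement membrane, were both dim, with 0.055 and -0.49. Col9a1 and Col19a1 on chromosome 1, also dim, had 0.088 and -0.19, so both of these pairs differed in sign. The dim Col6a5 and Col6a4 on chromosome 9 had -0.14 and -0.22.

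The other 19 collagens were below the filter. Among them the cartilage chains Col2a1, Col9a1, Col9a2, Col10a1 and Col11a2 had signals of at most 90.2 on any array. Col9a3 was the 1 gene of the 19 with groups that did not overlap, where 5.19% of all genes below the filter were higher without overlap and 4.11% lower. It measured 17.4, 46.2 and 22.3 in lactation and 7.55, 10.5 and 13.9 in controls, all far below the array medians. Its other probe sets overlapped. Col2a1 was 75.9 in lactation replicate 3 and from 10.2 to 20.2 in the other 5 tumours. Col26a1 measured 78.2, 26.6 and 29.1 against 68.6, 69.0 and 101, with a difference of -0.74, and its second, dimmer probe set differed in the other direction. Col24a1, a fibrillar chain of bone, was highest in control replicate 3 at 189, where the others lay from 64.9 to 117. Col4a3, Col4a4, Col4a6, Col6a4, Col6a5, Col13a1, Col19a1, Col20a1, Col22a1 and Col25a1 had overlapping groups. Col6a6 and Col28a1 were not analysed here.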

How the data were processed

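Total RNA from each tumour was labelled with biotin as cRNA, per the labels' protocols. The deposited intensity values are MAS5 signals, per the submitters' processing notes, in 1 table of 45101 probe sets and 6 arrays. The MAS5 version and the genome build are not given in the sources used here. Probe sets were named from the platform's annotation table. All 42 collagens matched the reference gene table by Entrez identifier, with 0 symbols changed. No array value was normalized further.

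Lactation was compared with control on log2(signal + 16) by limma (version 3.58.1, R 4.3.3). The model held only the group, eBayes used a trend on intensity, and p-values were adjusted by Benjamini-Hochberg over 11623 genes, with a threshold of 0.05. The fit was tested on simulated data. Summaries used Python 3.11.15 and plots matplotlib 3.10.9. Members, classes, lists, named genes and alternatives were chosen with earlier results of these data known, and motifs and printed promoters after the values were seen. Named genes were 18 fixed collagens, the largest difference in each class, those with groups that did not overlap, and the 2 largest in each making or binding list. Ppib, Col4a5, Col16a1, Col27a1, Col9a3, Col2a1, Col26a1 and Col24a1, and the markers Krt5 and Itgam, were singled out after their values were seen. Alternatives covered scaling, added constants, filters, probe sets, eBayes, array weights, the replicate block and leaving out each array.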

Additional observations from a re-analysis of the deposited data

How the results depend on the processing

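No collagen gene and none of the making or binding genes passed adjustment under any alternative run. With array weights, where control replicate 3 had the lowest weight of 0.685, the differences were 0.058 for Col1a1, 0.031 for Col1a2, 0.014 for Col3a1, 0.013 for Col5a2, 0.050 for Col5a3 and 0.019 for Col6a3, and the 23 tested collagens split into 11 positive and 12 negative. With quantile normalization Col1a2 and Col3a1 had 0.0095 and 0.040, and with the mean of its probe sets Col1a2 had 0.079. With arrays centred on their medians the split stayed at 3 positive and 20 negative, with a collagen median of -0.13 beside -0.051 for all genes. Genes at an unadjusted p under 0.05 were 175 higher and 89 lower in limma, and 109 and 125 with centred arrays. The median of the fibril-associated class was -0.087 with a filter on the mean, which kept fewer genes, and with the mean of probe sets. Where no cause is given it was not tested. The number of arrays and their spread limit what could be detected.

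When an array was left out, the median of all collagens ranged from -0.21 to 0.165 and that of the network class reached -0.068 without control replicate 1 and 0.171 without control replicate 3. Single differences ranged from -0.144 to 0.191 for Col1a1, -0.051 to 0.056 for Col1a2, -0.11 to 0.097 for Col3a1, -0.331 to 0.219 for Col5a1, -0.221 to 0.174 for Col5a2, -0.502 to 0.404 for Col5a3, -0.47 to 0.158 for Col11a1, -0.209 to 0.129 for Col4a1 and -0.252 to 0.171 for Col4a2. They ranged from -0.264 to 0.152 for Col6a1, -0.267 to 0.074 for Col6a2, -0.284 to 0.234 for Col6a3, -0.022 to 0.338 for Col12a1, -0.412 to 0.058 for Col14a1 and -0.256 to 0.192 for Col15a1. For Bmp1 the range was -0.491 to 0.045, for Creb3l1 -0.485 to 0.265, for Lair1 -0.529 to 0.032 and for Tmem38b -0.394 to 0.124.

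With the replicate block 0 collagens and 0 genes passed. Deviations from the group means correlated at 0.143, -0.083 and 0.267 between tumours of the same number. The highest correlation was 0.458, between lactation replicate 1 and control replicate 2. Deviations sum to 0 within each group, so these values constrain each other and cannot show whether the numbers pair the tumours.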
